A study of Mus musculus with 45 samples.

Results

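The 10 genes described here are Cd3d, Cd3e, Cd3g, Cd7, Cd8a, Itgae, Gzma, Gzmb, Ccl5 and Xcl1, a set of genes expressed by intraepithelial lymphocytes, measured in bulk RNA-seq libraries of sorted small intestinal tuft cells. They were taken by symbol, through their Ensembl identifiers, from tables of 47729 genes, and 7 of the 10 were among the 14020 genes that passed the read filter (6 or more of the 45 libraries with over 5 reads). Cd3d, Cd3g and Xcl1 did not pass it. Each library came from 1 male C57BL/6J mouse housed at thermoneutrality, in cages of 4, on a reference diet (RFD, 10% fat) or a high fat diet (HFD, 60% fat). One set of libraries, titled STF, holds 11 RFD and 11 HFD mice and was taken as 9 weeks of feeding, and the other, titled LTF, holds 11 RFD and 12 HFD mice and was taken as 22 weeks. According to the labels all 45 libraries are of 9 weeks, and the 22 weeks come from the study's methods, so time and set cannot be told apart. The cells were sorted as EpCAM+CD45+Siglec-F+ according to the labels, while another passage of the methods uses CD45 to leave cells out. The question put to these genes was whether their reads differ between the diets within each set, in how many libraries they are found at all, and whether they go together from library to library.

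Intraepithelial lymphocytes sit between the epithelial cells of the gut, above the basement membrane, and most of them in the mouse small intestine are CD8+ T cells with αβ or γδ receptors. The CD3 chains carry the signal of the T cell receptor into the cell. The integrin CD103 binds E-cadherin on epithelial cells, and granzymes and chemokines are stored or released by activated and tissue-resident cytotoxic cells. Tuft cells are chemosensory epithelial cells and are not known for making CD3 chains. Natural killer cells and innate lymphoid cells can also make several of these genes, among them Cd7, Itgae, the granzymes, Ccl5 and Xcl1, whereas the CD3 chains mark T cells most closely.

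The 10 genes were rare in these libraries. They held 1597 reads in all 45 libraries together, of which Gzma took 519 (32.5%), Gzmb 201, Ccl5 196, Itgae 190, Cd8a 126, Cd3e 122, Cd7 107, Cd3g 95, Cd3d 34 and Xcl1 7. Total reads on genes ran from 189340 to 4690213 per library, with group medians between 1348669 and 1813398, and 1 RFD and 1 HFD library at 9 weeks had fewer than 500000. Itgae was found, with at least 1 read, in 30 of the 45 libraries, Cd8a in 24, Cd3e and Ccl5 in 21 each, Gzma, Cd7 and Cd3g in 19 each, Gzmb in 17, Cd3d in 9 and Xcl1 in 5. None of the 10 was found in every library. Per length, as deposited TPM (a gene's share of all transcripts, scaled by its length), the mean level was 8.07 ± 13.8 for Gzma (SD, n = 45) and 6.56 ± 11.8 for Ccl5, followed by Cd7 at 2.01 ± 3.26, Gzmb at 1.48 ± 3.46, Cd3g at 1.23 ± 2.32, Cd3e at 0.929 ± 1.71, Itgae at 0.650 ± 0.948, Cd8a at 0.618 ± 0.919, Xcl1 at 0.314 ± 1.04 and Cd3d at 0.314 ± 0.816. The SD exceeded the mean for each of them. Neighbours in this order were not compared within libraries, so the order is only a description.

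**Figure D1:**
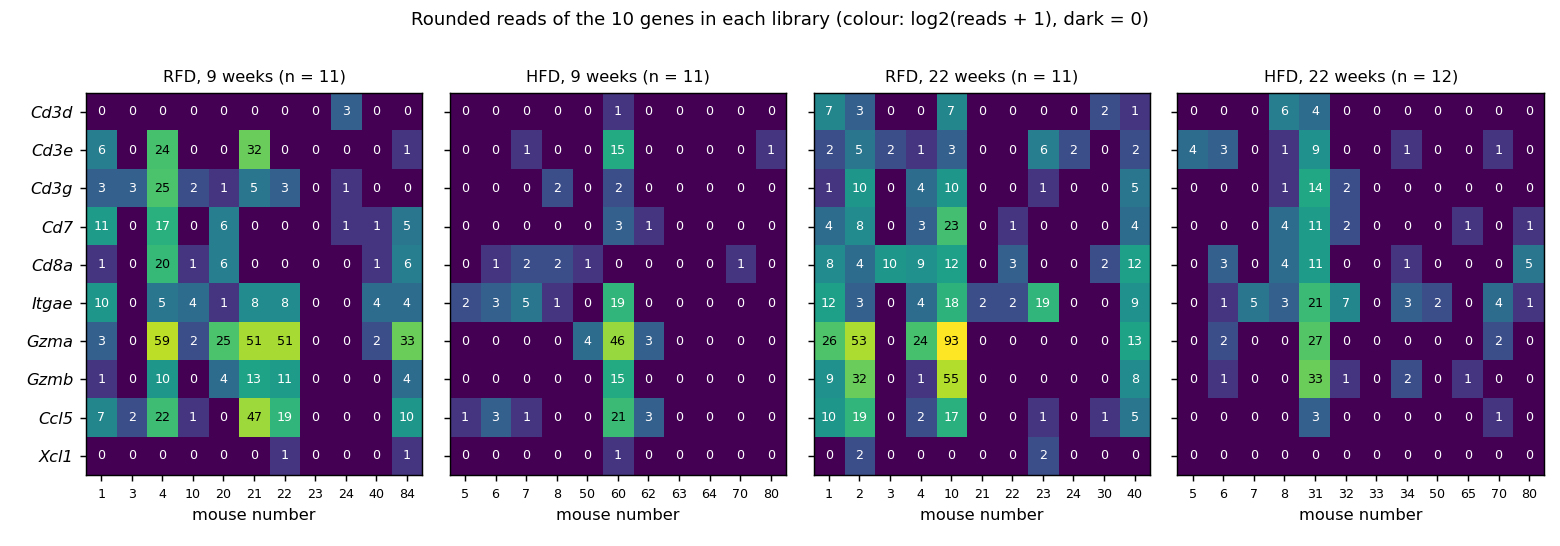
Rounded reads of the 10 genes (rows) in each library (columns, by mouse number), in 4 panels for RFD and HFD at 9 and 22 weeks. Each cell prints its reads and the colour is log2(reads + 1). The HFD panels are mostly 0 apart from mouse 60 at 9 weeks, with 123 reads, and mouse 31 at 22 weeks, with 133 reads.

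At both times the RFD libraries held more reads of the 10 genes than the HFD libraries. At 9 weeks the RFD libraries held 608 reads, from 0 to 182 per library with a median of 42, and the HFD libraries 161 reads, from 0 to 123 with a median of 5. HFD mouse 60 alone had 123 of those 161 reads (76.4%), and the other HFD libraries 38. At 22 weeks the RFD libraries held 619 reads, from 2 to 238 with a median of 29, and the HFD libraries 209 reads, from 0 to 133 with a median of 7. HFD mouse 31 alone had 133 of the 209 (63.6%), and the others 76. The RFD reads were spread more widely, with 29.9% in mouse 4 at 9 weeks and 38.4% in mouse 10 at 22 weeks. In bulk samples fewer cells of a type and less RNA per cell cannot be told apart.

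Detection went the same way. Of all pairs of a gene and a library, 56 of 110 (50.9%) had at least 1 read on RFD at 9 weeks and 28 of 110 (25.5%) on HFD. At 22 weeks the numbers were 60 of 110 (54.5%) and 40 of 120 (33.3%). With over 5 reads required the numbers became 26 (23.6%) and 5 (4.55%) at 9 weeks, and 28 (25.5%) and 9 (7.50%) at 22 weeks. Thinning of each library to 500000 reads, without the 2 shallower ones, left 38.7% of pairs detected on RFD against 14.5% on HFD for the 9 week set, and 39.9% against 22.6% for the 22 week set. At least 1 CD3 chain was found in 9 of 11 RFD and 4 of 11 HFD libraries at 9 weeks, and in 9 of 11 and 7 of 12 at 22 weeks. At least 5 of the 10 genes were found together in 7 RFD libraries and 1 HFD library at 9 weeks, and in 6 and 3 at 22 weeks. Without HFD mice 60 and 31, which were chosen after their values were seen, HFD detection was 19.0% at 9 weeks and 28.2% at 22 weeks. No read of any of the 10 genes was found in RFD mouse 23 and HFD mice 63 and 64 of the 9 week set, and in HFD mouse 33 of the 22 week set. The library of mouse 23 was one of the deepest at 4193097 reads, where a count of 0 allows a level of up to 0.773 CPM (reads scaled to a library of fixed size, after TMM normalization) for a gene, counting error only.

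The summed level of the 10 genes gives the same picture on a scale that allows for depth. In CPM it ran from 0 to 65.4 with a median of 24.5 on RFD and from 0 to 69.3 with a median of 1.62 on HFD at 9 weeks. At 22 weeks it ran from 1.58 to 132.6 with a median of 19.7 on RFD and from 0 to 64.5 with a median of 5.02 on HFD. The ranges of the diets overlapped at both times. On the scale of log2(summed CPM + 1), RFD averaged 4.09 ± 1.87 (SD, n = 11) and HFD 1.94 ± 1.85 (n = 11) at 9 weeks, a difference of -2.15. At 22 weeks RFD averaged 3.97 ± 1.98 (n = 11) and HFD 2.47 ± 1.64 (n = 12), a difference of -1.50. The 10 genes were chosen with results of these data known, so the sum was given no test. Without HFD mice 60 and 31 the differences were -2.57 and -1.82, and without the highest RFD libraries, mouse 4 at 9 weeks and mouse 10 at 22 weeks, they were -1.96 and -1.19.

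**Figure D2:**
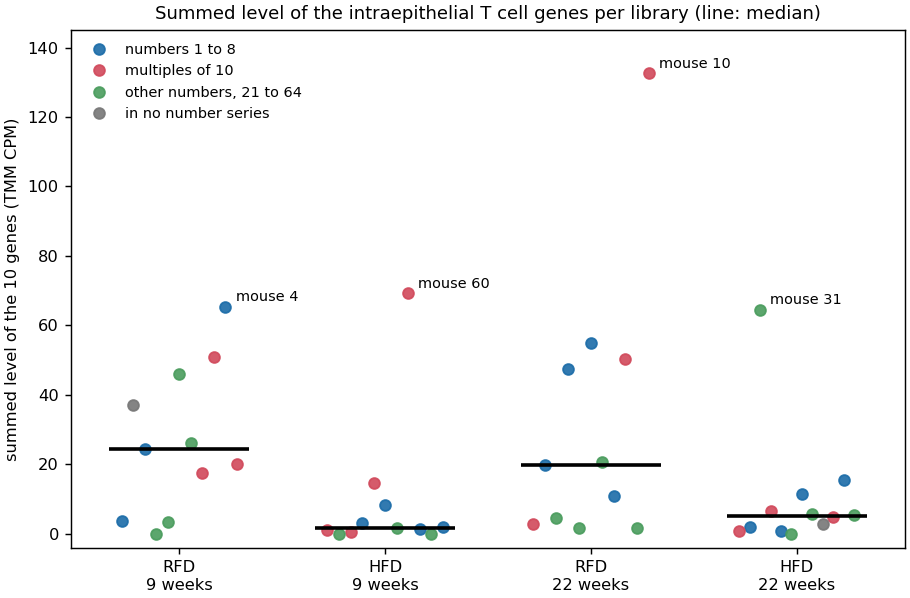
Summed level of the 10 genes per library in TMM CPM (y axis, linear) for the 4 groups, 1 point per mouse, coloured by the series its number belongs to, with a line at the group median. The medians are 24.5 and 1.62 CPM for RFD and HFD at 9 weeks, and 19.7 and 5.02 CPM at 22 weeks.

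The mouse numbers fall into 3 series (1 to 8, multiples of 10, and other numbers from 21 to 64), and 2 mice are in none. The study was done as repeated experiments whose mice are not named, and differences inside each series are given as a check for a batch. At 9 weeks the difference in log2(summed CPM + 1) was -2.28, -1.84 and -2.65 in the 3 series. At 22 weeks it was -2.31 and -2.79 in the first and second series and 0.43 in the last, where it was -0.63 without HFD mouse 31. That last series held only 39 reads of the 10 genes in its 4 RFD libraries, of which 29 were in mouse 23. Gene by gene, on log2(CPM + 1), 8 of the 10 genes had a lower mean on HFD in the first series at 9 weeks, 5 in the second and 9 in the last. At 22 weeks the counts were 9, 9 and 2, and without mouse 31 the last was 5. In the second series at 9 weeks, which holds mouse 60, the count was 7 without that mouse. The pooled difference at 22 weeks therefore did not hold in the series of numbers 21 to 64.

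Cd3d, Cd3e and Cd3g code for the delta, epsilon and gamma chains of CD3. Their genes stand together on chromosome 9 of GRCm38, Cd3g at 44969572 to 44980431 on the minus strand, Cd3d at 44981786 to 44987339 on the plus strand and Cd3e at 44998740 to 45009627 on the minus strand, so that Cd3g and Cd3d are transcribed away from each other with 1355 bases between them. Cd3e overlaps the predicted genes Gm48719, with 135 of its 4080 exon bases shared, and Gm48720, with none shared. Since the libraries keep no strand, reads in the shared bases may be divided between the genes. The same limit holds for Cd7 with Gm11775, which had 8 reads, and for Xcl1 with Gm20743, which had 115 reads beside 7 of Xcl1.

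RefSeq's windows of GRCm38.p6 from 250 bases before to 50 bases after each gene's start were present for 7 of the 10 genes, all but Cd7, Ccl5 and Itgae. They are shown for the divergent pair Cd3g and Cd3d, with the E-box letters CACCTG in capitals, and for the granzymes Gzma and Gzmb, whose reads went together, with the RUNX core letters TGTGGT, or ACCACA where the match is on the other strand, in capitals. E-boxes are read by E proteins and RUNX sites by RUNX factors, families with known roles in T cells. The windows are chr9:44980382-44980681 (minus strand), chr9:44981536-44981835 (plus), chr13:113100932-113101231 (minus) and chr14:56262285-56262584 (minus), in this order.
Cd3g: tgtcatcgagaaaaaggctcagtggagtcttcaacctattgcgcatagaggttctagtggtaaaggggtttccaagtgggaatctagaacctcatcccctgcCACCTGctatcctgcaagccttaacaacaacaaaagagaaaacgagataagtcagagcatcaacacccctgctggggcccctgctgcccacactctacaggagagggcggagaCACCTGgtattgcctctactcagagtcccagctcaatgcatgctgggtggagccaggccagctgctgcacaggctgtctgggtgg
Cd3d: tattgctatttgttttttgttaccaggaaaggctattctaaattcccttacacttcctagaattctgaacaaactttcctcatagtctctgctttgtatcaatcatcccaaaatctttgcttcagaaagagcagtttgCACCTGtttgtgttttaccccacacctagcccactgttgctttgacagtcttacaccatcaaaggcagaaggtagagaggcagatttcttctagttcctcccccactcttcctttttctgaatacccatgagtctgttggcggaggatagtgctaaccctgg
Gzma: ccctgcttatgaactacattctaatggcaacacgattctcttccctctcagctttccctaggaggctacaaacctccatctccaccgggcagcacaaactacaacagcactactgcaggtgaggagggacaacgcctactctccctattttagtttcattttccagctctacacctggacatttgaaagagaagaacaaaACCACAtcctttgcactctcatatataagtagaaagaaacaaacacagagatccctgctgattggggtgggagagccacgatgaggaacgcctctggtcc
Gzmb: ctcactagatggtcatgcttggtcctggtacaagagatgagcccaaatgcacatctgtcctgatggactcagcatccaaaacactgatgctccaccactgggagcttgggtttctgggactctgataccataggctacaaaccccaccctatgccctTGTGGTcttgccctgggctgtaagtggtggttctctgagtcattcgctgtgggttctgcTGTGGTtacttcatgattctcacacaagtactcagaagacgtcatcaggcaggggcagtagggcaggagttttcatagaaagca
The Cd3g window holds CACCTG 148 and 35 bases before the start and the Cd3d window 112 bases before it. The Gzma window holds ACCACA 50 bases before the start, and the Gzmb window TGTGGT 93 and 34 bases before it. For Gzmb this start is that of RefSeq and not that of GENCODE. Its whole window, from 56262285 on, lies upstream of the GENCODE gene, whose first transcribed base is 56262260. Both strands were searched, and no match of one motif overlaps a match of the other in these 4 windows. Of the 7 windows, 4 held CACCTG (those of Cd3d, Cd3e, Cd3g and Gzma) and 3 held TGTGGT (Gzma, Gzmb and Xcl1). Among all 32851 RefSeq windows of 300 bases, 20.2% held CACCTG and 16.8% TGTGGT, so these letters are common and a match is only a description.

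Of the CD3 chains, Cd3g showed the widest gap between the diets at 9 weeks. It was found in 8 of 11 RFD libraries, with 0 to 25 reads and a median of 2, and in 2 of 11 HFD libraries, mice 8 and 60, with 2 reads each. On the RFD side mouse 4 had 25 of the 43 reads, and 10 of the 11 HFD libraries were below the RFD median. Mean log2(CPM + 1) was 1.10 ± 1.04 on RFD and 0.18 ± 0.40 on HFD (SD, n = 11 each), a difference of -0.93 (unadjusted p = 0.00749, two-sided permutation test). At 22 weeks Cd3g was found in 6 of 11 RFD libraries (0 to 10 reads, median 1) and 3 of 12 HFD libraries (0 to 14 reads, median 0), with 14 of the 17 HFD reads in mouse 31. The difference there was -0.59 (p = 0.197, permutation test). Without mouse 31 it was -0.82 (unadjusted p = 0.0467, permutation test). That mouse held most of the HFD reads of Cd3g and was chosen after its values were seen, so this p is only a description. Cd3g did not pass the read filter, and in an edgeR fit of all genes with a read its adjusted p was 0.190 at 9 weeks and 0.692 at 22 weeks.

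Cd3e was found in 4 of 11 RFD libraries at 9 weeks, with 32 reads in mouse 21 and 24 in mouse 4, and in 3 of 11 HFD libraries, with 15 of 17 reads in mouse 60. Both medians were 0 and the groups overlapped. For HFD against RFD its log2 fold change was -1.14, with an SE of 1.18 and an adjusted p of 0.655 (edgeR). At 22 weeks Cd3e was found in 8 of 11 RFD libraries (0 to 6 reads, median 2) and 6 of 12 HFD libraries (0 to 9 reads, median 0.5). Its log2 fold change there was -0.51 with an SE of 0.84 (adjusted p = 0.888). Cd3d was at the limit of detection. At 9 weeks it had 3 reads on RFD, all in mouse 24, and 1 read on HFD, in mouse 60, too few for a fold. At 22 weeks it had 20 reads in 5 of 11 RFD libraries, at most 7 in one, and 10 reads in 2 of 12 HFD libraries, 6 in mouse 8 and 4 in mouse 31. The difference in mean log2(CPM + 1) at 22 weeks was -0.27 (p = 0.472, permutation test).

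Cd7 is a surface glycoprotein of T, natural killer and innate lymphoid cells (chromosome 11, 121036747 to 121039418, minus strand, sharing 122 of its 1133 exon bases with the predicted gene Gm11775 on the other strand). At 9 weeks it was found in 6 of 11 RFD libraries, with 0 to 17 reads and a median of 1, and in 2 of 11 HFD libraries, with 3 reads in mouse 60 and 1 in mouse 62. It had the largest log2 fold change of the 7 tested genes at 9 weeks, -3.15 (SE 1.13, unadjusted p = 0.00897, adjusted p = 0.143), which did not pass the threshold of 0.1. By permutation the difference in mean log2(CPM + 1) was -1.05 (p = 0.0207). At 22 weeks Cd7 had 43 reads in 6 of 11 RFD libraries, 23 of them in mouse 10, and 19 reads in 5 of 12 HFD libraries, 11 of them in mouse 31. There its log2 fold change was -1.17, with an SE of 0.96 and an adjusted p of 0.731.

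Cd8a, the alpha chain of the CD8 co-receptor (chromosome 6, 71373427 to 71379173, plus strand), was, with Itgae and Ccl5, found in the most HFD libraries at 9 weeks. At 9 weeks it had 35 reads in 6 of 11 RFD libraries, 20 of them in mouse 4, and 7 reads in 5 of 11 HFD libraries, never more than 2. Mouse 60, which held most of the HFD reads of the 10 genes, had no Cd8a read. Cd8a had an estimated log2 fold change of -1.89, with an SE of 1.12 and an adjusted p of 0.383. At 22 weeks it had 60 reads in 8 of 11 RFD libraries (0 to 12, median 4) and 24 reads in 5 of 12 HFD libraries (0 to 11, median 0), and the estimate was -1.50 on the log2 scale (SE 0.92, adjusted p = 0.605).

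Itgae codes for CD103, the alpha E integrin that holds lymphocytes to the epithelium (chromosome 11, 73090583 to 73147446, plus strand). The kinase gene Haspin lies within it on the other strand, with no annotated exon base shared between them. It was the gene found in most libraries and its diet differences were among the smaller ones. At 9 weeks it had 0 to 10 reads (median 4) in 8 of 11 RFD libraries and 0 to 19 reads (median 0) in 5 of 11 HFD libraries, with 19 of 30 HFD reads in mouse 60. The fold change on the log2 scale was -1.03 (SE 1.12, adjusted p = 0.673). RFD mouse 40, a library of 189340 reads, had 4 reads of Itgae, or 25.5 CPM. The fold change was -0.36 (SE 1.07) without RFD mouse 40 and -2.20 (SE 1.16) without HFD mouse 60. At 22 weeks it was found in 8 of 11 RFD libraries (median 3 reads) and 9 of 12 HFD libraries (median 2.5 reads), and the fold change on the log2 scale was -0.81 (SE 0.81, adjusted p = 0.791).

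Gzma codes for granzyme A, a tryptase of cytotoxic granules (chromosome 13, 113093825 to 113100981, minus strand), and it had the most reads of the 10 genes. In the 9 week set it was found in 8 of 11 RFD libraries and ran from 0 to 21.2 CPM with a median of 11.6, with more than 20 reads in mice 4, 20, 21, 22 and 84. On HFD it was found in mice 50, 60 and 62 with 4, 46 and 3 reads, and the other 8 HFD libraries had none. The log2 fold change of Gzma was -1.49 (SE 1.10, adjusted p = 0.494), and by permutation the difference in mean log2(CPM + 1) was -1.70 (p = 0.0397). At 22 weeks Gzma was found in 5 of 11 RFD libraries, with 93 reads in mouse 10, 53 in mouse 2, 26 in mouse 1, 24 in mouse 4 and 13 in mouse 40, and none in the other 6. On HFD mouse 31 had 27 reads, mice 6 and 70 had 2 each and the other 9 had none. The log2 fold change of Gzma was then -2.80 (SE 1.11, unadjusted p = 0.0175, adjusted p = 0.360), and by permutation the difference was -1.36 (p = 0.0941).

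Gzmb codes for granzyme B, the aspartate-specific protease of the same granules (chromosome 14, 56258838 to 56262260, minus strand). In the 9 week set it was found in 6 of 11 RFD libraries, with at most 13 reads, and on HFD in mouse 60 alone, with 15 reads. Among HFD libraries only mouse 60 was thus above 0, and it was also above all RFD libraries. Gzmb had an estimate of -0.89 on the log2 scale (SE 1.11, adjusted p = 0.727). At 22 weeks mouse 10 on RFD had 55 of the 105 RFD reads and mouse 31 on HFD had 33 of the 38 HFD reads. Gzmb was found in 5 of 11 RFD and 5 of 12 HFD libraries there, with an estimate of -1.43 on the log2 scale (SE 1.06, adjusted p = 0.693).

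Ccl5 codes for a chemokine that memory CD8+ T cells keep ready as mRNA (chromosome 11, 83525778 to 83530518, minus strand). In the 9 week set it had 108 reads in 7 of 11 RFD libraries, 47 of them in mouse 21, and 29 reads in 5 of 11 HFD libraries, 21 of them in mouse 60, and its estimate was -1.39 on the log2 scale (SE 1.03, adjusted p = 0.492). At 22 weeks it had 55 reads in 7 of 11 RFD libraries, with 19, 17 and 10 in mice 2, 10 and 1, and 4 reads in all on HFD, 3 in mouse 31 and 1 in mouse 70. Of the 12 HFD libraries, 10 were below the RFD median. Ccl5 had a log2 fold change of -3.28 here (SE 0.95, unadjusted p = 0.00161, adjusted p = 0.139), the largest of the 7 tested genes at 22 weeks, and by permutation the difference in mean log2(CPM + 1) was -1.06 (p = 0.0106). Unlike the granzymes, Ccl5 was low in mouse 31 relative to the RFD libraries with many reads. Xcl1, a chemokine for dendritic cells with the receptor XCR1 (chromosome 1, 164931644 to 164935527, minus strand, sharing 98 of its 523 exon bases with the predicted gene Gm20743 on the other strand), had 2 reads on RFD and 1 on HFD at 9 weeks, and 4 reads on RFD and 0 on HFD at 22 weeks. For the 12 HFD libraries together, a count of 0 allows a level of up to 0.131 CPM of their summed reads, beside a mean of 0.191 ± 0.457 CPM on RFD (SD, n = 11), and 9 of the 11 RFD libraries had no read either. By permutation the difference in mean log2(CPM + 1) at 22 weeks was -0.18 (p = 0.215), and the fit of all genes with a read gave an unadjusted p of 0.0130 and an adjusted p of 0.263 (edgeR).

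Over the 7 tested genes, HFD was below RFD for 7 at 9 weeks and 7 at 22 weeks, where 52.7% and 52.1% of all 14020 genes had a log2 fold change below 0. The median log2 fold change of the 7 was -1.39 at 9 weeks and -1.43 at 22 weeks, beside -0.05 and -0.03 over all genes tested. None of the 7 passed an adjusted p of 0.1 at 9 weeks (edgeR's quasi-likelihood test, Benjamini-Hochberg over all genes), a threshold that 3.32% of all genes passed. None passed at 22 weeks, where 0.792% of all genes did. An unadjusted p under 0.05 was reached by 1 of the 7 at 9 weeks (Cd7), beside 18.0% of all genes, and by 2 at 22 weeks (Gzma and Ccl5), beside 10.3% of all genes. When a term for the 3 series of mouse numbers was added to the fit, without the 2 mice in none, this p was reached by Cd7 and Gzma at 9 weeks, beside 16.8% of all genes, and by Ccl5 alone at 22 weeks, beside 11.6%. In that fit Gzma moved to -3.47 (SE 1.33, unadjusted p = 0.0145, adjusted p = 0.175) at 9 weeks and to -2.47 (SE 1.64, unadjusted p = 0.145, adjusted p = 0.605) at 22 weeks. Gzmb moved to -2.59 (SE 1.33, adjusted p = 0.325) and Cd3e to -2.68 (SE 1.60, adjusted p = 0.413) at 9 weeks, and the median of the 7 was -2.59 there. A rank test of the SAM-seq kind called 0 of the 7 at either time, with a lowest q of 0.117 for Gzma at 9 weeks and 0.219 for Ccl5 at 22 weeks, while it called 15.9% and 4.99% of all genes. DESeq2 returned no adjusted p for any of the 7, and its unadjusted p was under 0.05 for 1 of them in either set, beside 20.8% of all genes in the first and 12.2% in the second. Because a gene passed the read filter through the group in which it was read more, the 7 are no sample of all 10. In the fit without a filter, 10 of 10 had a log2 fold change below 0 at both times, beside 52.5% and 52.7% of all genes with a read. At 9 weeks this count holds Cd3d (3 reads on RFD, 1 on HFD) and Xcl1 (2 and 1), too few for a direction. Of the 10, 0 passed an adjusted p of 0.1 in this fit, beside 5.22% and 1.26% of all genes. Those with an unadjusted p under 0.05 were Cd3g, Cd7 and Gzma at 9 weeks (3 of 10, beside 16.1% of all genes) and Gzma, Ccl5 and Xcl1 at 22 weeks (3 of 10, beside 10.4%). Xcl1 at 22 weeks rests on 4 reads on RFD and 0 on HFD, and its p in the permutation test was 0.215.

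The counts of called genes turned on the HFD libraries with most reads. Without HFD mouse 60, 3 of the 7 genes were called at 9 weeks, where 2.95% of all genes were, namely Cd7 (log2 fold change -4.48, SE 1.17, adjusted p = 0.0722), Gzmb (-4.70, SE 1.19, adjusted p = 0.0722) and Gzma (-3.99, SE 1.21, adjusted p = 0.0973), and the median was -3.44. Without HFD mouse 31, 2 were called at 22 weeks, where 0.863% of all genes were, namely Ccl5 (-4.33, SE 0.99, adjusted p = 0.0352) and Gzma (-5.09, SE 1.19, adjusted p = 0.0390), and the median was -2.02. Ccl5 was also called at 22 weeks without RFD mouse 1 (adjusted p = 0.0735, with 4.76% of all genes called) or RFD mouse 3 (adjusted p = 0.0797, with 1.72% called). Without RFD mouse 10 none of the 7 was called at 22 weeks, as with all libraries, and their median was -0.56. In that fit 58 of all 14020 genes were called. At 9 weeks none of the 7 was called without RFD mouse 4, the highest RFD library, and their median was -1.22. In that fit 413 of all 14020 genes were called. Mice 60 and 31 were chosen after their values were seen, and leaving them out lowers the HFD sum by construction. The calls without them therefore only describe how far the counts rest on these 2 libraries. No label sets mice 60 and 31 apart, and both stayed in every main value.

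**Figure D3:**
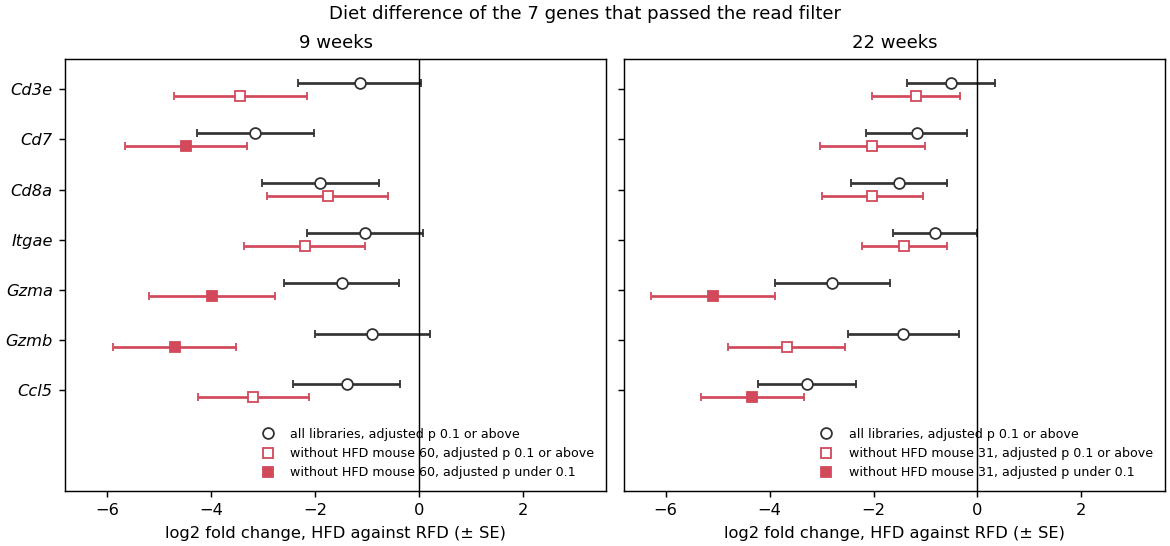
Log2 fold change for HFD against RFD with its SE (x axis) for the 7 genes that passed the read filter (y axis), at 9 and 22 weeks, with all libraries (circles) and without the HFD library with most reads of these genes (squares, mouse 60 or mouse 31). Filled symbols have an adjusted p under 0.1: none with all libraries, Cd7, Gzma and Gzmb without mouse 60, and Gzma and Ccl5 without mouse 31. Both mice were picked after their values were seen, and leaving them out lowers the HFD sum by construction.

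The difference between the diets was not shown to change from one set to the other. In a fit of all 45 libraries, the interaction of diet and set had an adjusted p of 1.00 for each of the 7 genes, and 0.00% of all genes passed (3.22% had an unadjusted p under 0.05, edgeR). The interaction was widest for Cd7 (2.05, SE 1.42) and Ccl5 (-1.82, SE 1.28) on the log2 scale, with unadjusted p = 0.155 and p = 0.159.

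The genes went together from library to library. On log2(CPM + 1), 43 of the 45 pairs had a positive Spearman's rho at 9 weeks (n = 22 libraries) with a median of 0.383, and 43 of 45 at 22 weeks (n = 23) with a median of 0.505. Over all pairs of the 14020 genes the median was 0.011 and 0.030 with a wide spread. The 5th to 95th percentile ran from -0.50 to 0.547 at 9 weeks and from -0.43 to 0.510 at 22 weeks. Both medians of the 10 genes lay inside it, but a median over 45 pairs cannot be judged by the spread of single pairs. Cd3d, Cd3g and Xcl1 are not among the 14020 genes. Of all gene pairs, 51.4% and 54.1% had a positive rho. With permutation p-values adjusted over the pairs of both times, 21 pairs at 9 weeks and 32 at 22 weeks had an adjusted p under 0.1. The lowest rho among them was 0.421 and 0.388, and 10.5% and 11.1% of all gene pairs had a rho at least as high. The pairs under 0.1 include Xcl1 with Gzma, Gzmb and Ccl5 at 9 weeks. At 22 weeks they include Cd3e with Xcl1, the pair with the lowest rho. Xcl1 had 2 reads on RFD and 1 on HFD at 9 weeks, and 4 reads in 2 RFD libraries at 22 weeks. These are too few to carry a correlation. The pairs share libraries, their depth and their zeros: over the pairs, the median number of libraries with both genes was 5 at 9 weeks and 7 at 22 weeks, and that with neither was 9 at both. With the diet means taken out, 11 and 25 pairs passed, with medians of 0.324 and 0.461, and without HFD mice 60 and 31 17 and 28 passed, with medians of 0.344 and 0.446. Within RFD libraries the median rho was 0.160 at 9 weeks and 0.480 at 22 weeks, and within HFD libraries 0.545 and 0.403. On HFD at 9 weeks Cd3d, Gzmb and Xcl1 were read in mouse 60 alone, so the rho of their pairs rests on that library. The HFD median at 22 weeks is over 36 pairs, since Xcl1 had no read there.

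By Spearman's rho the granzymes were the closest pair at 9 weeks, with rho = 0.815 (p = 4e-05, adjusted p = 0.0012) and Pearson's r = 0.802 (p = 3e-05, adjusted p = 0.000386), and r = 0.744 without mice 4 and 60 (permutation tests). By Pearson's r Gzmb with Ccl5 was closer there (r = 0.833, rho = 0.729). At 22 weeks they had rho = 0.774 (p = 8e-05, adjusted p = 0.0018) and r = 0.858 (p = 2e-05, adjusted p = 0.000386), and r = 0.900 without mice 4 and 10. The closest pair at 22 weeks was Gzma with Ccl5, at rho = 0.849 (adjusted p = 0.0009) and r = 0.918 (adjusted p = 0.000386), both with p = 1e-05, the smallest these permutations can give, and r = 0.898 without mice 4 and 10. At 9 weeks that pair had rho = 0.629 (p = 0.00251, adjusted p = 0.0117) and r = 0.639 (p = 0.00153, adjusted p = 0.00725), and r = 0.508 without mice 4 and 60. Cd3g with Cd7 had rho = 0.831 and r = 0.881 at 22 weeks (p = 2e-05 and 1e-05, adjusted p = 0.0009 and 0.000386), and r = 0.816 without mice 10 and 31, but rho = 0.239 and r = 0.351 at 9 weeks (adjusted p = 0.375 and 0.153). Among the CD3 chains rho was between 0.134 and 0.359 at 9 weeks, where Cd3d had reads in 2 libraries, and between 0.281 and 0.643 at 22 weeks. The lowest rho at 9 weeks was that of Cd3d with Cd8a, -0.293 (adjusted p = 0.462).

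**Figure D4:**
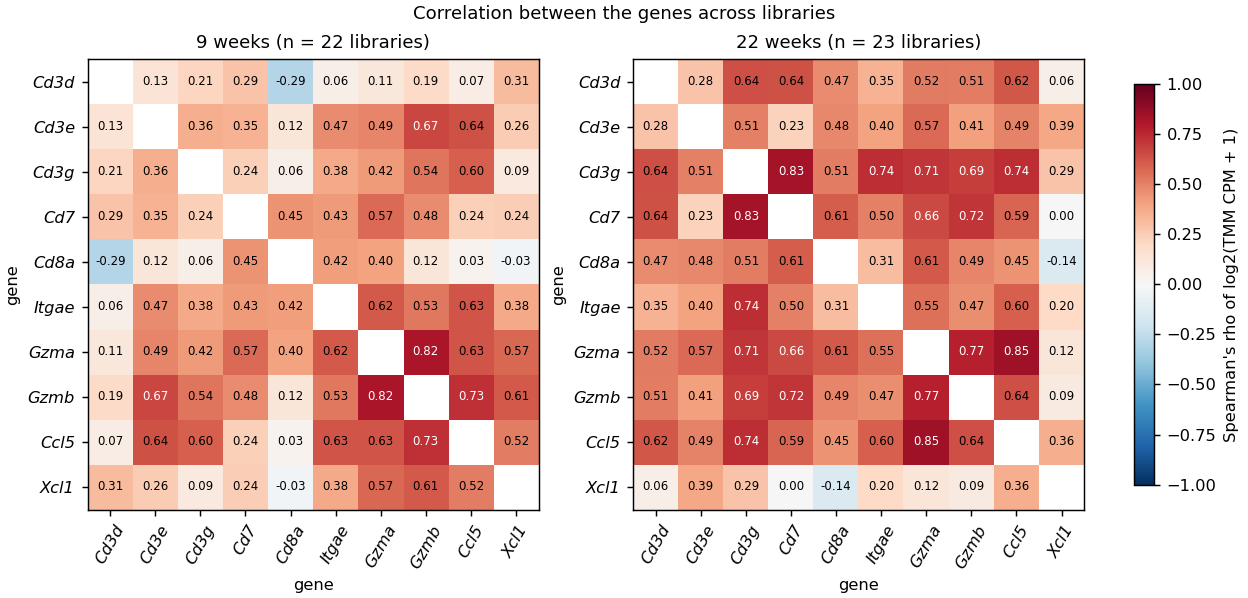
Spearman's rho between the 10 genes over libraries on log2(TMM CPM + 1), at 9 weeks (n = 22) and 22 weeks (n = 23), with red for positive and blue for negative values. The granzymes are the highest pair at 9 weeks (0.82). At 22 weeks (0.77) they are below Gzma with Ccl5 (0.85) and Cd3g with Cd7 (0.83). The square of Cd3g and Cd7 is pale at 9 weeks (0.24) and dark at 22 weeks, and Cd3d at 9 weeks and Xcl1 at 22 weeks have pale rows.

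Outside the 10 genes, the genes that went most closely with their summed CPM at both times, by the smaller of the rho at 9 and 22 weeks, were Tnfaip8 (0.494), Lcp2 (0.490), Slc40a1 (0.485), Nkg7 (0.484), Itgax (0.477), Ighm (0.465), Gm37219 (0.464), Laptm5 (0.462), Gpr171 (0.456) and Gm42576 (0.453). Over all genes the median rho was 0.0119 and 0.0331. These 10 were picked as the highest of all tested genes, so they stand above the median by selection. Over all gene pairs the 95th percentile of rho at a single time was 0.547 at 9 weeks and 0.510 at 22 weeks. The list was not tested for any cell type, and not all of its genes are described here. Nkg7 is a membrane protein of cytotoxic granules, Lcp2 the adaptor SLP-76, Itgax the integrin CD11c of myeloid cells and Ighm the heavy chain of IgM. Nkg7 was found in 6 of 11 RFD and 3 of 11 HFD libraries at 9 weeks, and in 6 of 11 and 2 of 12 at 22 weeks.

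Other T cell genes were mostly below the read filter as well. Of 24 genes of the T cell receptor and its signalling, 5 were tested, and 1 had an adjusted p under 0.1 at 9 weeks and 0 at 22 weeks (edgeR, with 1 at an unadjusted p under 0.05). The 1 was Lck, the kinase that phosphorylates CD3, at -2.97 on the log2 scale (SE 0.83, adjusted p = 0.0716) at 9 weeks and -0.66 (SE 0.68, adjusted p = 0.800) at 22 weeks. Mouse 60 had no Lck read, and mouse 31 had 40 of its 418 reads. The list's median was -0.51 and -0.66. Of its receptor chains, Trac had 14 reads in 6 of the 45 libraries, Trbc1 27 in 10, Trbc2 72 in 13 and Trdc 64 in 20. Of 30 genes of cytotoxicity and tissue residency, 9 were tested and 0 passed at either time (0 and 1 at an unadjusted p under 0.05), with medians of -0.39 and -0.63. In this list Itgb7, the partner chain of CD103, was at -0.42 on the log2 scale (SE 1.24, adjusted p = 0.900) at 9 weeks and -3.20 (SE 0.98, adjusted p = 0.178) at 22 weeks. Its most expressed genes, Bcl11b, the gut homing receptor gene Ccr9 and Cd244a, were at 0.57, -1.51 and 0.19 at 9 weeks and at -0.03, -0.63 and -0.08 at 22 weeks. Of 16 genes through which epithelial cells and lymphocytes meet, 15 were tested, and only Il18 passed, at -1.08 on the log2 scale (SE 0.33, adjusted p = 0.0962) at 9 weeks and -0.61 (adjusted p = 0.451) at 22 weeks. Cdh1, the E-cadherin bound by CD103, was read in all 45 libraries, at 0.10 (adjusted p = 0.808) and 0.23 (adjusted p = 0.737) on the log2 scale.

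Markers of other immune cells were read in the same libraries, and their part in the results was not tested. Mouse 60 was the highest HFD library at 9 weeks for the sum of 10 B and plasma cell genes (3530 CPM, in a group from 0 to 3530 with a median of 6.73) for 12 myeloid genes (875 CPM, from 0 to 875, median 18.4) and for the T cell receptor list (42.2 CPM, from 1.17 to 42.2, median 8.04). On RFD those sums ran from 0 to 3477 (median 187.6), from 3.10 to 628 (median 44.6) and from 7.47 to 89.1 (median 29.7). Mouse 31 was the highest HFD library at 22 weeks for the myeloid genes (2804 CPM, from 1.87 to 2804, median 18.6) and second for the B and plasma cell genes (2678 CPM, from 2.62 to 7606, median 50.6), beside RFD ranges of 7.67 to 122.1 (median 16.8) and 5.87 to 2487 (median 41.2). It was also the highest for the T cell receptor list (120.8 CPM, from 2.72 to 120.8, median 17.7, beside 8.23 to 85.9 with a median of 42.5 on RFD). For the 30 genes of cytotoxicity and tissue residency mouse 60 ranked 3 among HFD libraries at 9 weeks (67.6 CPM, beside 107.8 in mouse 50, median 29.0). Mouse 31 ranked 1 for that list at 22 weeks (105.8 CPM, median 33.3). For the 10 innate lymphoid cell genes the ranks were 5 (24.8 CPM) for mouse 60 and 1 (76.7 CPM) for mouse 31. For the 11 eosinophil and mast cell genes they were 4 and 2. No gene of the B and plasma cell list (5 of 10 tested) or the myeloid list (11 of 12 tested) had an adjusted p under 0.1 at either time. At an unadjusted p under 0.05 there were 0 of either list at 9 weeks, and 0 and 6 at 22 weeks, beside 10.3% of all genes there (edgeR). At 22 weeks both lists had a median above 0, unlike the 10 genes. The median of the B and plasma cell list was 0.47 on the log2 scale at 9 weeks and 0.89 at 22 weeks, and that of the myeloid list -0.20 and 2.71. At 22 weeks all 11 tested myeloid genes had a log2 fold change above 0, the 6 included. Without mouse 31 only 4 of the 11 did, the median was -0.15, and the 3 with an unadjusted p under 0.05 were lower on HFD, while the median of the B and plasma cell list was 0.70. Without mouse 60 the medians at 9 weeks were -0.30 and -1.32.

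The sorted cells carried the tuft cell markers. All 15 tuft cell genes were tested, and Trpm5 and Sh2d6 were read in all 45 libraries. Their sum ran from 3260 to 22920 CPM (median 13552) on RFD and from 324 to 21271 (median 5984) on HFD at 9 weeks, and from 3978 to 26864 (median 18321) and from 1169 to 23736 (median 13846) at 22 weeks. At both times 14 of the 15 had a log2 fold change below 0, with medians of -0.96 and -0.44, and 0 had an adjusted p under 0.1 (6 and 3 at an unadjusted p under 0.05, edgeR). The gate genes Epcam, Ptprc (CD45) and Siglecf were read in all 45 libraries. The tuft cell sum thus moved with diet in the same direction as the 10 genes, and what lies behind this was not tested. With the difference of tuft and enterocyte markers as a covariate 0 of the 7 genes were called, as without it, with medians of -1.21 and -0.66. Of all 14020 genes that fit called 72 at 9 weeks and 128 at 22 weeks. An unadjusted p under 0.05 was reached in it by Cd7 and Cd8a at 9 weeks, beside 12.1% of all genes. At 22 weeks Ccl5 reached it, beside 9.02% (edgeR).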

How the data were processed

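The authors removed adapters with Cutadapt 1.15, aligned reads with STAR 2.6.0 and counted them with RSEM (GRCm38 in the submitters' notes). They deposited expected counts and TPM values per gene, and 8.79% of the deposited counts above 0 were not whole. The tables hold 24 columns of no sample, which were left out. No counts were weighted by cell type here, although the authors did so before their own tests. Symbols and positions are those of GENCODE M21.

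Counts were rounded. Genes with over 5 expected counts in 6 or more of the 45 libraries and 1 gene per symbol (the one with most reads) were kept. The diets were compared within each set with edgeR 4.0.16 (TMM, robust quasi-likelihood test, Benjamini-Hochberg over all genes, threshold 0.1) in R 4.3.3. A p-value measures the spread between libraries of 1 mouse each. No test holds a term for cage or day of termination, which are not known for these libraries, so cage-mates were taken as independent. Single genes, those below the filter included, were also compared by a two-sided permutation test of mean log2(CPM + 1), unadjusted, with 100000 resamples, and pairs of genes by permuted correlations with 100000 resamples. DESeq2 1.42.0, limma 3.58.1 on log2(TPM + 1) and a rank test written after the SAM-seq of the study's methods (20 resamplings to equal depth, 100 permutations), which is not installed, were alternatives. The fits were tested on simulated data. Left out in turn were each library, the filter, libraries under 500000 reads and the 2 mice outside the number series. Intervals and limits cover counting error only, and a limit for 0 reads is 3 counts.

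The 10 genes and the gene lists were chosen with earlier results of these data known. Named are all 10 genes, of each list the genes with an adjusted p under 0.1 or else those with the highest mean CPM, and the 10 genes most correlated with the sum at both times. Itgb7, Nkg7's detection, Cdh1 and the receptor chains were added after their values were seen, as were the fits without mice 60, 31, 4 and 10 for sums, detection, correlations and lists.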

Additional observations from a re-analysis of the deposited data

How the results depend on the processing

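Leaving out each library in turn gave 0 to 3 called genes at 9 weeks and 0 to 2 at 22 weeks, beside 0 with all libraries. The 3 were found without HFD mouse 60, the 2 without HFD mouse 31, and 1 each without RFD mice 1 and 3 at 22 weeks. The count was 0 without a filter, with limma on TPM, with a batch term for the number series, with the tuft and enterocyte covariate, without libraries under 500000 reads and in the SAM-seq kind of test. Of all 14020 genes, limma on TPM called only 9 at 9 weeks and 51 at 22 weeks, and the covariate fit 72 and 128. The batch fit called 456 and 185, and the fit without shallow libraries 290 and 111. The fit without a filter called 5.22% and 1.26% of all genes with a read. The SAM-seq kind of test called 15.9% and 4.99% of the 14020 genes. With such shares of calls over all genes, a count of 0 among 7 says little about stability. At 9 weeks the median was -2.59 with the batch term. DESeq2 gave no adjusted p for the 7 genes, and edgeR's own expression filter left none of them, so neither has a count. The summed level kept its direction in every setting, from -2.57 to -1.96 at 9 weeks and from -1.82 to -1.19 at 22 weeks without single libraries, with all number series pooled. Detection with more than 5 reads was 23.6% on RFD at 9 weeks and 7.50% on HFD at 22 weeks, further from the main shares than the SD between libraries. Correlated pairs at 9 weeks were 11 with the diet means taken out, beside 21.

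No paired analysis was possible because the diets compared share no mouse numbers within a set, and equal numbers in the 2 sets are different mice. With no read for most genes in most HFD libraries, counting noise limits each value, and Cd3d and Xcl1 could not be compared at 9 weeks at this depth.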

Other observations

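Lists that bear less on the 10 genes gave few calls (edgeR, adjusted p under 0.1). Of 10 innate lymphoid cell genes, 3 were tested and 0 passed at either time, with 0 and 1 at an unadjusted p under 0.05. Of 11 eosinophil and mast cell genes, 1 was tested and did not pass (0 and 0). Of 5 M cell genes, 3 were tested and 0 passed (1 and 0). Of 12 enterocyte genes, Rbp2, a retinol-binding protein, was higher on HFD at 9 weeks, and at 22 weeks Rbp2 and Mttp, which loads lipid on lipoproteins, were higher and the glucose transporter gene Slc5a1 was lower. Rbp2 was at 1.32 on the log2 scale at 9 weeks (SE 0.31, adjusted p = 0.0432) and at 1.58 at 22 weeks (SE 0.29, adjusted p = 0.00755), where Mttp was at 1.04 (SE 0.25, adjusted p = 0.0614) and Slc5a1 at -1.36 (SE 0.29, adjusted p = 0.0233).

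In HFD mouse 31 the T helper co-receptor gene Cd4, which myeloid cells can also make, had 125 of its 296 reads over all 45 libraries, and Lck had 40 of 418. Among the other genes of the T cell receptor list, chosen after their values were seen, Cd6 had 17 of 91, Trbc2 15 of 72, Lat 9 of 38, Zap70 8 of 31 and Cd5 7 of 21 there, Trac had 2 of 14, and Cd28, Txk and Cd8b1 had no read in this library. In HFD mouse 60 Ccl4 had 30 of its 84 reads and Ccl3 15 of 71. Csf1r, the receptor of macrophage growth factor, had 1049 of its 2110 reads in mouse 31.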
